A study of Homo sapiens with 6 samples.

Results

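Integrins, laminins and collagens are the proteins through which an epithelial cell builds its basement membrane and holds on to it. They were measured here as the gene symbols in the count files that start with ITGA or ITGB and a digit or V, with LAMA, LAMB or LAMC and a digit, or with COL and a digit. Of 24462 distinct symbols in the files, 90 matched, and 77 of these name a chain: 13 integrin alpha, 8 integrin beta, 12 laminin and 44 collagen genes. The other 13 are 6 antisense transcripts, 3 pseudogenes and 4 protein genes that only share the letters, and they are described apart. The samples are H460 cells, an established human lung cancer line of large-cell origin. Glutamine-depleted H460 cells (3 libraries) had spent 24 h in RPMI medium without glutamine, with dialyzed fetal bovine serum at 10%. They were compared with glutamine-replete H460 cells (3 libraries), which the labels describe as grown in RPMI with 10% fetal bovine serum, without saying whether that serum was dialyzed. The labels give no culture time for the replete cells. Any difference in serum or time cannot be told apart from that in glutamine. RNA was read from the polyadenylated end of each transcript, so counts were not divided by gene length. Whether replicates were grown as separate cultures is not stated in the labels, so the p-values reflect only how much these libraries vary, and that may be technical. All results come from 1 cell line.

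As background, an integrin is a pair of 1 alpha and 1 beta chain that spans the plasma membrane, binds a matrix protein outside and couples to the actin or keratin skeleton inside. A laminin is a trimer of an alpha, a beta and a gamma chain that forms a sheet at the cell surface. Collagen IV makes the network of the basement membrane, and the fibrillar collagens make the fibres of the stroma below it. The prolyl and lysyl hydroxylases that mature collagen use alpha-ketoglutarate, which cells can make from glutamine.

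The shallowest library had 7550849 counts and the deepest 10914899. A level of 3 counts, the most that a count of 0 allows, stood for 0.275 to 0.397 CPM (each count scaled by its library's total). That limit covers counting error only. No pair of replicates differed by counting error alone, since chi-square per degree of freedom was at least 1.51 for each pair. The replete pairs, at 1.9, 2.03 and 1.51, came closest to it. Such values do not tell separate cultures from repeat preparations of the same RNA. Depleted replicate 2 stood farthest from its group, with values of 19.4 (to replicate 1) and 11.7 (to replicate 3). Of the 10 epithelial markers, 6 reached 10 counts in a library. The keratin KRT18 had 4101, 3693 and 3293 counts in depleted libraries, against 4318, 3782 and 3614 in replete libraries, whereas EPCAM had at most 4 counts and the E-cadherin gene CDH1 at most 1. The keratin KRT19 had 3166, 3315 and 2680 counts in depleted libraries, against 12770, 11022 and 10510 in replete libraries, whereas the keratin KRT7 went the other way, with 369, 356 and 348 counts in depleted libraries, against 81, 68 and 70 in replete libraries. Summed epithelial marker levels, in which KRT19 and KRT18 have most counts, ran from 805.5 to 932 CPM in depleted and from 2114 to 2140 CPM in replete libraries. Of 10 endothelial markers, 4 were at 0 and 1 reached 10 counts, ESAM, with 31, 12 and 23 counts in depleted libraries, against 0, 0 and 1 in replete libraries. Of 12 blood cell markers, 3 reached 10 counts. CD68 had 44, 46 and 34 counts in depleted libraries, against 56, 64 and 54 in replete libraries, CD14 had 5, 5 and 4 against 12, 23 and 27, and ITGAM 11, 5 and 9 against 0 in each, while the pan-leukocyte gene PTPRC had at most 3 counts. The part of all these markers in the results was not tested. In bulk samples, fewer cells of a kind and less RNA per cell cannot be told apart.

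Depleted cells held less integrin, laminin and collagen RNA as a share of all counts. Summed over the 77 chains, the level was 1999 ± 30.4 CPM in depleted cells and 3442 ± 51.4 CPM in replete cells (mean ± SD, n = 3 each). Collagens summed to 773 ± 23.1 CPM in depleted and 1421 ± 13.9 CPM in replete cells, and laminins to 698.5 ± 12.4 CPM in depleted and 1114 ± 21.4 CPM in replete cells. Integrin alpha chains summed to 164 ± 24.3 CPM in depleted and 309 ± 11.3 CPM in replete cells, and beta chains to 364 ± 9.19 CPM in depleted and 598 ± 9.39 CPM in replete cells. In each family the ranges of the libraries were apart.

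**Figure D1:**
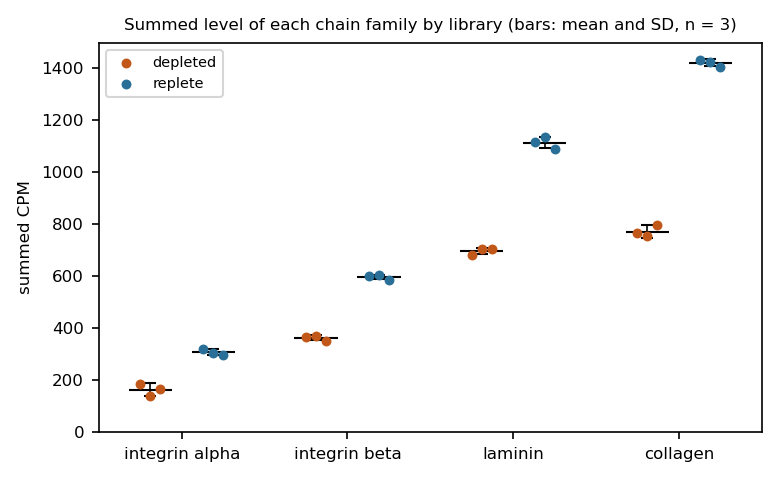
Summed CPM (vertical axis) of all integrin alpha, integrin beta, laminin and collagen chain genes in each library, depleted left of replete, with bars for the mean and SD of 3 libraries. Every depleted library lies below every replete library in each family, for example 754 to 798.5 CPM against 1406 to 1432 CPM for collagens.

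A single gene carried much of each sum. COL5A2, a chain of the fibril-regulating collagen V, held 40.0% to 45.5% of the collagen counts in depleted libraries and 67.7% to 69.8% in replete libraries. Without it, the remaining collagens summed to 418, 411 and 479 CPM in depleted libraries, against 432, 461 and 453 CPM in replete libraries, and the groups overlapped. ITGB5 held 47.3% to 49.2% of the integrin beta counts in depleted and 68.7% to 69.7% in replete libraries. Without it, the other beta chains ran from 186 to 194 CPM in depleted and from 178 to 189 CPM in replete libraries, again with overlap. ITGA6 held 46.3% to 61.7% of the alpha chain counts in depleted and 73.9% to 75.3% in replete libraries. Without it, the other alpha chains stayed apart, at 71.6, 74.5 and 69.2 CPM in depleted libraries, against 81.3, 75.9 and 78.0 CPM in replete libraries. LAMC1 held 35.7% to 41.0% of the laminin counts in depleted and 53.5% to 55.1% in replete libraries. The laminins without it still lay apart, at 404 to 453 CPM in depleted against 490 to 528 CPM in replete libraries. The gaps and overlaps of these reduced sums hold for CPM, which uses library totals. Trimmed-mean scaling, used for the gene tests below, raises every depleted sum and lowers every replete sum against CPM. It can close such gaps and separate such overlaps. The reduced sums were not tested under it, so they do not settle whether the remaining chains differed.

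Gene by gene, the families split in both directions. Of the 77 chains, 42 had enough counts to be tested. With an adjusted p under 0.05 in edgeR's quasi-likelihood test over all genes, 13 of the 42 rose and 20 fell in depleted cells. This share of 78.6% called is that of the whole transcriptome: 78.6% of 12739 genes tested were called, 39.1% higher and 39.4% lower, against 31.0% higher and 47.6% lower among the tested chains. The median log2 fold change was −0.47 for the tested chains and −0.02 for all genes. By more than 2-fold, 8 chains rose and 16 fell, where the background was 21.8% and 23.7% of all genes. CPM ranges lay apart for 33 of the 42 chains, where the background was 81.0% of all genes. Of the 33, 11 lay above and 22 below, where the background was 33.2% above and 47.8% below. The filter lets a gene in through 1 group: 4 tested chains passed it in depleted cells alone and 9 in replete cells alone. Those passing in depleted cells alone were COL5A3, LAMA2, COL15A1 and COL7A1. Those passing in replete cells alone were ITGA2, ITGA7, ITGB4, LAMC3, COL18A1, COL2A1, COL4A1, COL4A3 and COL5A1. Genes that enter in this way tend to differ, so the counts describe the tested chains, not the families. Log2 fold changes use trimmed-mean scaling, whereas CPM uses library totals. With totals alone the log2 fold change of the median gene was lower by 0.23, and 11 chains rose and 21 fell, where 32.4% and 46.5% of all genes did.

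**Figure D2:**
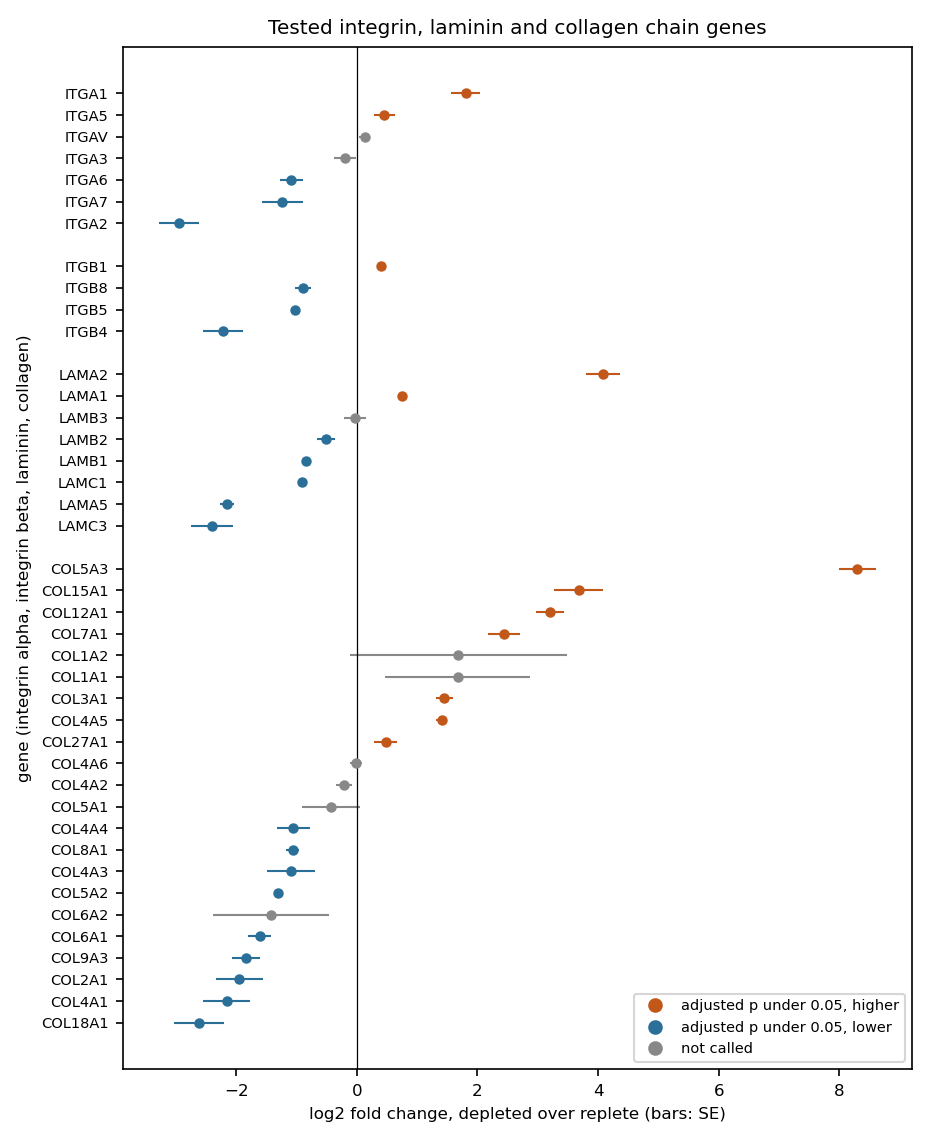
Log2 fold change, depleted over replete (horizontal axis), of tested chain genes, grouped from top to bottom as integrin alpha, integrin beta, laminin and collagen, with bars for the standard error from 3 libraries a group. Orange points rose and blue points fell at an adjusted p under 0.05, and grey points were not called. COL5A3 lies farthest to the right at 8.30 and ITGA2 farthest to the left at −2.95, and COL1A1 and COL1A2 have the widest bars.

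Among integrin alpha chains, the tested collagen receptors, ITGA2 and ITGA1, moved in opposite directions. ITGA2, the alpha chain of a main epithelial collagen receptor, stood at 0.458, 0.916 and 0.923 CPM in depleted libraries, against 5.32, 8.71 and 6.62 CPM in replete libraries. It fell by 2.95 on the log2 scale (SE 0.33, edgeR adjusted p = 2.57e-06), and the groups lay far apart. ITGA1, whose product also pairs with the ITGB1 chain to bind collagen, stood at 6.78, 5.04 and 6.46 CPM in depleted libraries, against 2.44, 1.89 and 1.72 CPM in replete libraries. All depleted libraries were above all replete ones (log2 fold change 1.81, SE 0.24, edgeR adjusted p = 1.23e-05). An exon of ITGA1 overlaps PELO on the same strand in the GENCODE 29 annotation, and PELO had 2212 counts in depleted and 819 in replete cells, so some ITGA1 counts may belong to PELO.

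Of the chains known mainly as laminin receptors, ITGA6, ITGB4 and ITGA7 fell and ITGA3 was not called, while ITGB1, which pairs with the alpha chains among them, rose and is described with the fibronectin receptors. ITGA6, the laminin receptor chain of epithelial cells, had 115, 64.1 and 98.8 CPM in depleted libraries, against 239.5, 231 and 220.2 CPM in replete libraries. Every depleted library was below every replete one, and depleted replicate 2 was the lowest (log2 fold change −1.09, SE 0.19, edgeR adjusted p = 0.00128). ITGB4, which pairs with ITGA6 in the hemidesmosomes that anchor keratin, had 0.825, 1.15 and 0.462 CPM in depleted libraries, against 4.87, 4.93 and 3.58 CPM in replete libraries. It fell by 2.22 on the log2 scale (SE 0.33, edgeR adjusted p = 3.84e-05), with groups apart. ITGA7, a laminin receptor best known from muscle, had 0.733, 0.916 and 0.692 CPM in depleted libraries, against 2.33, 1.77 and 2.38 CPM in replete libraries. It fell, with groups apart (log2 fold change −1.23, SE 0.34, edgeR adjusted p = 0.00451), but its exons overlap BLOC1S1, METTL7B and the read-through BLOC1S1-RDH5 on the other strand, and strand use in counting is not given in the sources used here. ITGA3, another laminin receptor chain, had 5.95 ± 1.25 CPM in depleted and 7.98 ± 0.280 CPM in replete cells. Its CPM ranges lay apart, but it was not called under trimmed-mean scaling (log2 fold change −0.20, edgeR adjusted p = 0.353).

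The chains that make receptors for fibronectin and vitronectin divided by partner. ITGB1, the beta chain shared by most matrix receptors, had 182, 176 and 175.5 CPM in depleted libraries, against 160.2, 160.4 and 151 CPM in replete libraries. It rose slightly, with groups apart (log2 fold change 0.40, SE 0.07, edgeR adjusted p = 0.000129), and with library totals alone it was still called. ITGA5, the fibronectin receptor chain, had 10.7, 11 and 9.23 CPM in depleted libraries, against 10.4, 7.07 and 8.87 CPM in replete libraries. These groups overlapped. It was called, at 0.45 on the log2 scale (edgeR adjusted p = 0.0271), but not with library totals alone (adjusted p = 0.240), with DESeq2 (0.0575), without depleted replicate 1 (0.0580), without replete replicate 2 (0.153) or without replete replicate 3 (0.0681). ITGAV, the alpha chain that pairs with several beta chains, had 45.4, 48.0 and 44.8 CPM in depleted libraries, against 50.95, 47.2 and 49.4 CPM in replete libraries. The groups overlapped and it was not called (log2 fold change 0.13, edgeR adjusted p = 0.192, and −0.10 with library totals alone). Its partner ITGB5, a vitronectin receptor chain, had 174, 182 and 167 CPM in depleted libraries, against 415, 415.5 and 409 CPM in replete libraries. It fell with groups far apart (log2 fold change −1.02, SE 0.07, edgeR adjusted p = 1.35e-08). ITGB8, a partner of ITGAV that helps to activate latent TGF-beta, had 10.8, 9.74 and 9.58 CPM in depleted libraries, against 20.6, 22.5 and 22.5 CPM in replete libraries. It fell too, by 0.89 on the log2 scale (SE 0.13, edgeR adjusted p = 3.01e-05).

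Ratios of counts within a library do not depend on scaling. For 10 pairs of chains chosen after their values were seen, they are given as descriptions without a test. ITGAV to ITGB5 was 0.260, 0.264 and 0.268 in depleted libraries, against 0.123, 0.114 and 0.121 in replete libraries, with every depleted value above every replete one. ITGA6 to ITGB1 was 0.633, 0.364 and 0.563 in depleted libraries, against 1.49, 1.44 and 1.46 in replete libraries, and here the depleted values were all lower.

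**Figure D3:**
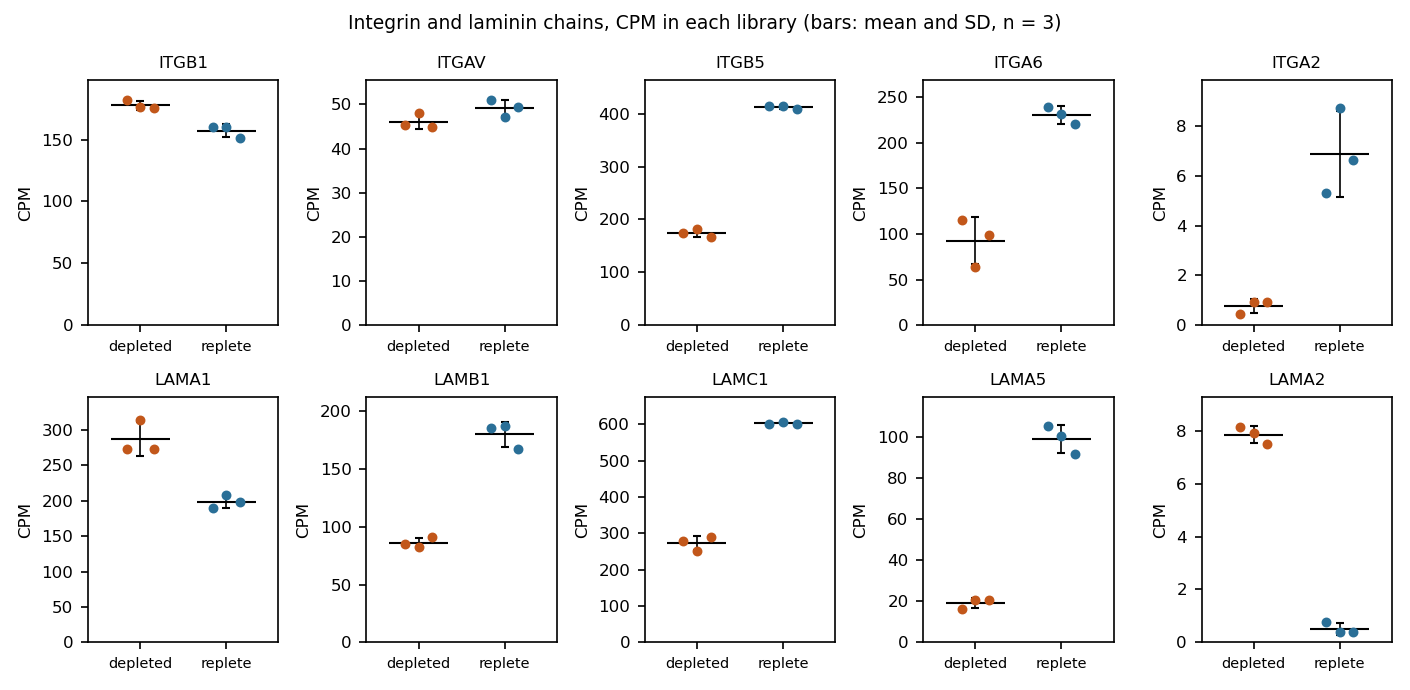
CPM (vertical axes, each from 0) of 5 integrin genes in the upper row and 5 laminin genes in the lower row, with 1 point per library, depleted left of replete, and bars for the mean and SD of 3 libraries. ITGB1, LAMA1 and LAMA2 lie higher in depleted cells, ITGB5, ITGA6, ITGA2, LAMB1, LAMC1 and LAMA5 lie lower, and the ITGAV groups overlap.

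Laminin chains that assemble into the same trimers went in different directions. LAMA1, the alpha chain of the embryonic type of laminin, had 272, 314 and 273.5 CPM in depleted libraries, against 190.2, 208 and 198 CPM in replete libraries. It rose, with groups apart (log2 fold change 0.76, SE 0.08, edgeR adjusted p = 1.37e-06). LAMC1, the gamma chain of most laminins, had 280.1, 251.5 and 289.9 CPM in depleted libraries, against 602, 607 and 602 CPM in replete libraries. LAMB1, a beta chain found in many of the same trimers, had 84.8, 82.8 and 91.0 CPM in depleted libraries, against 186, 187 and 168 CPM in replete libraries. Both fell with groups far apart, LAMC1 by 0.91 (SE 0.07, edgeR adjusted p = 4.49e-08) and LAMB1 by 0.84 (SE 0.08, edgeR adjusted p = 4.95e-07). LAMC1 to LAMB1 was 3.30, 3.04 and 3.18 in depleted libraries, against 3.24, 3.25 and 3.59 in replete libraries, so their ratio overlapped between groups. LAMA1 to LAMC1 was 0.973, 1.25 and 0.943 in depleted libraries, against 0.316, 0.342 and 0.329 in replete libraries, with no overlap.

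The other alpha chains changed more. LAMA5, the most widespread alpha chain of adult epithelial basement membranes, had 16.1, 20.6 and 20.8 CPM in depleted libraries, against 105, 100.4 and 91.7 CPM in replete libraries. It fell by 2.15 on the log2 scale (SE 0.11, edgeR adjusted p = 1.85e-09). LAMA2, the alpha chain of muscle and nerve basement membranes, had 8.15, 7.90 and 7.50 CPM in depleted libraries, against 0.775, 0.379 and 0.397 CPM in replete libraries. It rose by 4.08 (SE 0.29, edgeR adjusted p = 2.76e-08), on 223 counts over the depleted libraries and 13 over the replete ones. LAMA5 exons overlap ADRM1 and LAMA5-AS1, and LAMB1 exons overlap DLD, in each case on the other strand, so some counts may be shared.

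Of the remaining laminin chains, LAMC3, a gamma chain, fell to 0.856 ± 0.469 CPM in depleted cells, against 5.32 ± 0.981 CPM in replete cells (log2 fold change −2.40, edgeR adjusted p = 2.83e-05). LAMB2, the beta chain of the kidney filter and the neuromuscular junction, had 8.06, 9.51 and 8.08 CPM in depleted libraries, against 14.8, 14.9 and 12.7 CPM in replete libraries. It fell, with groups apart (log2 fold change −0.50, edgeR adjusted p = 0.00740). Its pseudogene LAMB2P1 went the other way, at 3.09 ± 0.253 CPM in depleted and 1.18 ± 0.160 CPM in replete cells (log2 fold change 1.60, edgeR adjusted p = 0.000178), and related copies can share reads. LAMB3, a beta chain of epithelial laminin, was not called, at 5.84 ± 1.01 CPM in depleted and 6.98 ± 0.638 CPM in replete cells (log2 fold change −0.03, edgeR adjusted p = 0.881), and LAMA3 had 4 counts in depleted and 14 in replete cells, too few to test.

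Collagen V showed both the largest increase and the most abundant decrease among collagens. COL5A3 had 39.8, 40.1 and 31.3 CPM in depleted libraries and only 2, 1 and 0 counts in replete libraries. That is 1055 against 3 counts, a ratio of 304 (edgeR adjusted p = 7.25e-11). The exact 95% counting interval of this ratio, 104 to 1478, pools the libraries of a group and leaves out variation between them. COL5A2 had 348, 343 and 319 CPM in depleted libraries, against 1000, 966 and 953 CPM in replete libraries. All depleted libraries were far below (log2 fold change −1.30, SE 0.06, edgeR adjusted p = 7.73e-10). COL5A1, the chain that joins COL5A2 in most collagen V, was not called at 1.01, 1.03 and 4.04 CPM in depleted libraries, against 2.55, 3.66 and 3.18 CPM in replete libraries (edgeR adjusted p = 0.424). Depleted replicate 3 stood above the other depleted libraries for COL5A1, and without it the gene fell by 1.37 (adjusted p = 0.00453). The RefSeq window around the annotated COL5A3 start, from 250 bases before it to 50 from it, is shown because this gene changed most. It lies at chr19:10010455-10010754 on the minus strand of GRCh38.p14, while the submitters' processing notes name hg19, without saying how it was used. Capitals mark the GC box GGGCGG and the CCAAT box, on either strand.
COL5A3: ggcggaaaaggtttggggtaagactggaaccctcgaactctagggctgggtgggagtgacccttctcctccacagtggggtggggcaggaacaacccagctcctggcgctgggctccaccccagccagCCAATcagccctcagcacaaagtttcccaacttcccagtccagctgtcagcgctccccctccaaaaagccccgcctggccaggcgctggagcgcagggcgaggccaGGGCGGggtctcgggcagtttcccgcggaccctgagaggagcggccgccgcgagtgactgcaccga
This window held 1 match to GGGCGG and 1 to CCAAT and none to TATAAA or to TGANTCA, the site of AP-1 factors. Searched the same way on both strands, 45%, 34.6%, 11.5% and 7.71% of 35116 windows of 300 bases held these motifs in that order. Such matches describe letters, not binding.

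COL12A1, COL7A1 and COL15A1 rose. COL12A1, which coats collagen fibrils, had 19.1, 12.0 and 17.1 CPM in depleted libraries, against 2.55, 1.64 and 1.85 CPM in replete libraries (log2 fold change 3.202, SE 0.24, edgeR adjusted p = 4.27e-08). COL7A1, the anchoring fibril collagen below epithelia, had 5.59, 8.02 and 5.999 CPM in depleted libraries, against 1.11, 1.64 and 1.46 CPM in replete libraries (2.44, SE 0.27, edgeR adjusted p = 2.16e-06). COL15A1, a basement membrane-zone collagen, had 6.41, 8.25 and 4.50 CPM in depleted libraries, against 0.886, 0.631 and 0.132 CPM in replete libraries (3.68, SE 0.41, edgeR adjusted p = 2.24e-06). In all of these the groups lay apart. COL18A1, the relative of COL15A1 that is the source of endostatin, went the other way, at 0.183, 0.802 and 0.923 CPM in depleted libraries, against 4.43, 3.41 and 5.43 CPM in replete libraries. It fell by 2.61 (SE 0.41, edgeR adjusted p = 6.00e-05), and its exons overlap SLC19A1 on the other strand, which had 34 counts in depleted and 190 in replete cells. COL3A1, a fibrillar collagen, had 28.8, 22.0 and 28.7 CPM in depleted libraries, against 10.4, 10.99 and 12.7 CPM in replete libraries. It rose by 1.45 (SE 0.15, edgeR adjusted p = 9.01e-07).

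The network collagen COL8A1 and the microfibril chain COL6A1 fell. COL8A1, a short-chain collagen of hexagonal networks, had 61.9, 83.6 and 67.3 CPM in depleted libraries, against 163, 182 and 174 CPM in replete libraries (log2 fold change −1.06, SE 0.11, edgeR adjusted p = 1.10e-06). COL6A1, a chain of beaded microfibrils, had 11.9, 19.8 and 23.1 CPM in depleted libraries, against 66.0, 63.3 and 64.6 CPM in replete libraries (−1.61, SE 0.19, edgeR adjusted p = 3.33e-05). The depleted libraries were spread more widely than the replete ones but did not reach them. The cartilage collagens COL9A3 and COL2A1 also fell. COL9A3 had 1.56 ± 0.336 CPM in depleted and 6.65 ± 0.292 CPM in replete cells (−1.84, edgeR adjusted p = 9.46e-06), with exons that overlap TCFL5 on the other strand. COL2A1 had 0.734 ± 0.464 CPM in depleted and 3.38 ± 0.522 CPM in replete cells (−1.95, edgeR adjusted p = 0.000490). COL27A1, a fibrillar collagen, had 6.98 ± 0.929 CPM in depleted and 5.85 ± 0.962 CPM in replete cells with overlapping groups. It was called at 0.48 (edgeR adjusted p = 0.0353), but not with library totals alone (adjusted p = 0.237), a mean CPM of at least 5 (0.0582), DESeq2 (0.0892), or without depleted replicate 2 (0.0898), replete replicate 1 (0.137) or replete replicate 3 (0.127).

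The collagen IV genes lie in pairs that start next to each other and are read in opposite directions, and the pairs differed. The annotated RefSeq starts are 127 bases apart for COL4A1 and COL4A2, 419 for COL4A3 and COL4A4, and 380 for COL4A5 and the nearer of the COL4A6 starts. COL4A1, which forms the common collagen IV with COL4A2, had 5, 3 and 5 counts in depleted libraries, against 25, 14 and 21 counts in replete libraries. It fell by 2.15 (SE 0.39, edgeR adjusted p = 0.000205), with groups apart. COL4A2 had 15.8, 20.5 and 17.0 CPM in depleted libraries, against 22.4, 26.4 and 23.3 CPM in replete libraries. Its CPM ranges lay apart, yet it was not called under trimmed-mean scaling (log2 fold change −0.21, edgeR adjusted p = 0.166). It was called lower with library totals alone (−0.44, adjusted p = 0.00844) and without depleted replicate 2 (−0.33, adjusted p = 0.0169), over a range of adjusted p of 0.00844 to 0.454. The COL4A2 to COL4A1 ratio was 34.4, 59.7 and 29.4 in depleted libraries, against 8.08, 14.9 and 8.38 in replete libraries, with no overlap but few COL4A1 counts. COL4A5, one of the chains mutated in Alport syndrome, had 142, 114 and 133 CPM in depleted libraries, against 52.1, 60.2 and 59.99 CPM in replete libraries. It rose by 1.40 (SE 0.10, edgeR adjusted p = 2.67e-08). Its neighbour COL4A6 had 60.3, 50.6 and 49.7 CPM in depleted libraries, against 69.2, 63.3 and 57.0 CPM in replete libraries. These groups overlapped, and the gene was not called (log2 fold change −0.01, SE 0.10, edgeR adjusted p = 0.934). The ratio of COL4A5 to COL4A6 was 2.35, 2.26 and 2.68 in depleted libraries, against 0.752, 0.952 and 1.05 in replete libraries, and every depleted value was higher. In the last pair, COL4A4 had 2.40 ± 0.956 CPM in depleted and 5.73 ± 0.524 CPM in replete cells (−1.06, edgeR adjusted p = 0.00324). COL4A3 had 1.01 ± 0.593 CPM in depleted and 2.57 ± 0.532 CPM in replete cells (−1.10, edgeR adjusted p = 0.0231). It was not called with DESeq2 (adjusted p = 0.0603), without depleted replicate 3 (0.0872) or without replete replicate 2 (0.0914), and the ratio of COL4A3 to COL4A4 overlapped between groups.

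**Figure D4:**
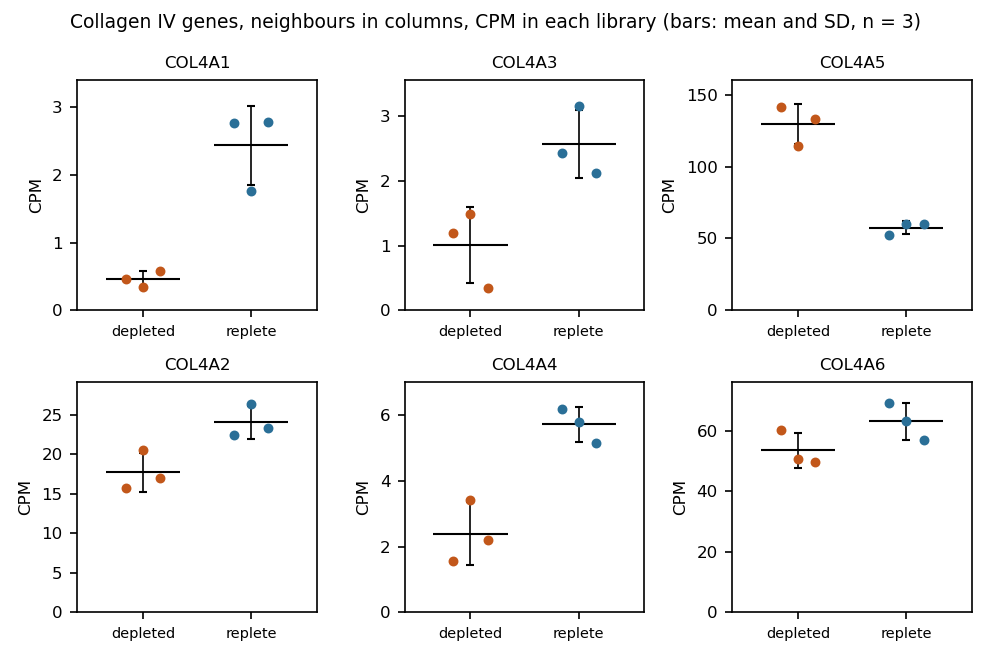
CPM (vertical axes, each from 0) of the 6 collagen IV genes, with genomic neighbours above each other, 1 point per library, depleted left of replete, and bars for the mean and SD of 3 libraries. COL4A5 is higher in depleted cells while COL4A6 below it overlaps, COL4A1 is lower, and COL4A3 and COL4A4 are both lower.

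The region between these neighbours is shown as 1 window per pair, from 250 bases before to 50 from the annotated start of the gene read on the plus strand, in RefSeq on GRCh38.p14. The COL4A2 window reaches past the COL4A1 start, while those of COL4A3 and COL4A5 hold only the nearer part of the bases up to the neighbour's start. They are chr13:110307034-110307333 for COL4A2, chr2:227164374-227164673 for COL4A3 and chrX:108439588-108439887 for COL4A5, with capitals for GGGCGG and CCAAT on either strand as above.
COL4A2: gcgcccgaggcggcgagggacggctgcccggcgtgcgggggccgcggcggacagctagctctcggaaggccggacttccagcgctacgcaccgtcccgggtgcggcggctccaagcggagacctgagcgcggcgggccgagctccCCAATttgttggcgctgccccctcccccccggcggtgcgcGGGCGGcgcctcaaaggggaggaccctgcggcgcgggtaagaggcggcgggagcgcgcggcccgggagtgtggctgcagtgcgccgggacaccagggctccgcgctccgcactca
COL4A3: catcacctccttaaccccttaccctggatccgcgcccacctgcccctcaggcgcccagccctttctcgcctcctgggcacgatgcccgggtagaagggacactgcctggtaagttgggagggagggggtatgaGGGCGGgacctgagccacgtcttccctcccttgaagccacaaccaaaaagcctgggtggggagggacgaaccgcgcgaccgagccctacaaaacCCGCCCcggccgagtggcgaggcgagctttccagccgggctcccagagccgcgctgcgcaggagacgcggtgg
COL4A5: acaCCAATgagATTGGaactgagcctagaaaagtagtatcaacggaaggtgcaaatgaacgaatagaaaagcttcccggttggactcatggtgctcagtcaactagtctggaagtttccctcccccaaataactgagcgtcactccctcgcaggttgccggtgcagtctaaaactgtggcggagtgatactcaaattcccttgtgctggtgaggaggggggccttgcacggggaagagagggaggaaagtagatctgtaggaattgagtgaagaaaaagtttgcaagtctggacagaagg
The windows differ in composition, with 77.7% G or C for COL4A2, 67.7% for COL4A3 and 49.3% for COL4A5. COL4A2 held 1 GGGCGG and 1 CCAAT, COL4A3 held 2 GGGCGG, and COL4A5 held 2 CCAAT on opposite strands. The window at the nearer COL4A6 start, which is not printed, held 3 CCAAT matches. It overlaps the COL4A5 window, and the 2 COL4A5 matches are among its 3. TATAAA and TGANTCA were in none of the 3 printed windows, and no marked motif overlaps another.

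The collagen I values turned on 1 library. COL1A1, the main chain of collagen I, had 7.51, 6.19 and 56.5 CPM in depleted libraries, against 3.43, 8.97 and 13.4 CPM in replete libraries. COL1A2, its partner chain, had 2, 3 and 158 counts in depleted libraries, against 9, 19 and 25 counts in replete libraries. For both genes depleted replicate 3 stood above all other libraries, whereas the other depleted libraries lay within or below the replete range. Neither was called (log2 fold change 1.67, SE 1.20, edgeR adjusted p = 0.264 for COL1A1, and 1.68, SE 1.80, edgeR adjusted p = 0.435 for COL1A2). Without depleted replicate 3, COL1A1 stood at −0.06 on the log2 scale (edgeR adjusted p = 0.922) and COL1A2 fell by 2.81 (adjusted p = 0.00359). COL6A2 and COL6A3, which join COL6A1 in microfibrils, were also highest in that library among depleted ones, COL6A2 at 0, 0 and 10 counts against 12, 5 and 11 in replete libraries, and COL6A3 at 4, 1 and 32 counts against 8, 7 and 7. Without depleted replicate 3, COL6A2 was called lower (edgeR adjusted p = 0.00138, against 0.199 with it).

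The summed level of 12 fibroblast markers other than collagens was lower in every depleted library, replicate 3 included, while several single markers were highest in that replicate. The sum was 13.2, 12.0 and 16.7 CPM in depleted libraries, against 25.8, 27.2 and 23.4 CPM in replete libraries. Of the 12, 3 reached 10 counts in a library (LUM, PDGFRB and TWIST2). LUM and TWIST2, which hold most counts in replete libraries, were lower in every depleted library. PDGFRB went the other way, with 74, 53 and 53 counts in depleted libraries, against 25, 18 and 17 in replete libraries. DPT was at 0 throughout. PDGFRA had 0, 3 and 7 counts in depleted libraries, against 0 in each replete library, and THY1 had 2, 3 and 6 against 0, 2 and 0. FAP had 3, 0 and 7 counts in depleted libraries, against 2, 2 and 0 in replete libraries, SFRP4 had 1, 1 and 9 against 4, 5 and 5, and MMP2 had 0, 0 and 5 against 0, 1 and 0. Depleted replicate 3 was thus above every other library for PDGFRA, THY1, FAP, SFRP4 and MMP2, at a level of a few counts. DCN had 3, 2 and 7 counts in depleted libraries, against 8, 1 and 3 in replete libraries. Their part in the collagen I values was not tested. Without depleted replicate 3, 13 chains rose and 22 fell over all families, where 37.4% of all genes rose and 37.4% fell.

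**Figure D5:**
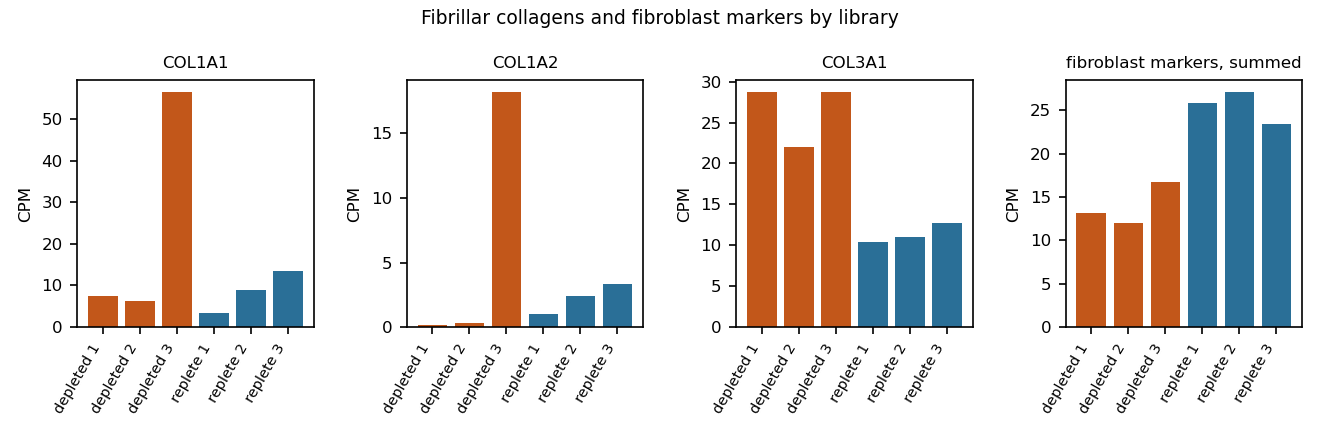
CPM (vertical axes, from 0) in each of the 3 depleted and 3 replete libraries for COL1A1, COL1A2 and COL3A1, and for the sum of 12 fibroblast markers that are not collagens. Depleted replicate 3 stands out at 56.5 CPM for COL1A1 and 18.2 CPM for COL1A2, but not for COL3A1 or the marker sum.

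The 35 chains that could not be tested were 28 with some counts, at most 32 in a library, and 7 at 0 in all libraries. Those at 0 included ITGB3, ITGB6 and ITGB7, partner chains of ITGAV and of leukocyte integrins, so any level lay below the limit of a count of 0. COL17A1, the hemidesmosome collagen that spans the membrane of basal epithelial cells, had 8, 12 and 5 counts in depleted libraries and 0 in each replete library. Taking 3 counts for the whole replete group as the floor, it was at least 7.21-fold higher in depleted cells. COL21A1 had 20 counts in depleted and 2 in replete cells, a ratio of 8.65 (exact 95% counting interval 2.10 to 76.4, from pooled counts as for COL5A3). COL11A2, counted on 7 entries of the files, had 12, 12 and 13 counts in depleted libraries, against 3, 2 and 0 in replete libraries. COL13A1, a transmembrane collagen, was lower in every depleted library, at 2, 0 and 2 counts against 8, 5 and 4 in replete libraries. These genes were named after their values were seen.

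Of the 4 protein genes that only share the letters, 3 were tested. ITGB1BP1, whose product binds the tail of the ITGB1 chain, had 28.1, 28.4 and 31.5 CPM in depleted libraries, against 53.8, 52.3 and 55.5 CPM in replete libraries, and fell (log2 fold change −0.65, edgeR adjusted p = 2.88e-05). COL4A3BP, the ceramide transporter, had 16.6, 12.9 and 15.8 CPM in depleted libraries, against 11.1, 11.6 and 12.4 CPM in replete libraries, and rose (0.60, edgeR adjusted p = 0.00188), with exons that overlap POLK on the other strand. ITGB3BP, a centromere protein, had 10.7, 11.3 and 12.9 CPM in depleted libraries, against 17.6, 17.8 and 15.8 CPM in replete libraries. It was called at −0.33 (edgeR adjusted p = 0.0426) but not with DESeq2 size factors (adjusted p = 0.0546), no count filter (0.0576) or DESeq2 (0.137), nor without depleted replicate 1 (0.138), replete replicate 1 (0.0941) or replete replicate 2 (0.103).

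The machinery around these chains also moved in both directions, and its lists were written with earlier results of these data known. Of 26 tested proteins that link integrins to the cytoskeleton, 9 rose and 14 fell, 34.6% and 53.8% where 39.1% and 39.4% of all genes did (median log2 fold change −0.37). FERMT2, the kindlin that activates integrins in adherent cells, rose to 165 ± 16.4 CPM in depleted cells, against 53.9 ± 1.30 CPM in replete cells (1.84, edgeR adjusted p = 7.51e-10). FERMT3, the kindlin known from blood cells, fell to 4.76 ± 1.91 CPM in depleted cells, against 91.4 ± 4.43 CPM in replete cells (−4.00, edgeR adjusted p = 3.31e-09). The focal adhesion protein ZYX rose by 1.61, and the actin crosslinker ACTN4 fell to 298 ± 15.8 CPM in depleted cells, against 1011 ± 16.4 CPM in replete cells.

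Of 24 tested collagen-modifying and processing genes, 2 rose and 16 fell, 8.33% and 66.7% where 39.1% and 39.4% of all genes did (median −0.79). With library totals alone 2 rose and 20 fell, where 32.4% and 46.5% of all genes did. CRTAP, a partner of the prolyl 3-hydroxylase complex in the endoplasmic reticulum, fell to 130 ± 3.15 CPM in depleted cells, against 365 ± 4.71 CPM in replete cells (−1.27, edgeR adjusted p = 1.49e-09). P3H4, another gene of this list, fell by 2.12 and the lysyl oxidase relative LOXL3 by 2.86. LOX, the crosslinking lysyl oxidase, and KLHL12, which directs the ubiquitination that enlarges procollagen carriers, were the genes that rose, by 1.62 and 0.47. Of 23 tested glycoproteins and proteoglycans of the matrix, 8 rose and 11 fell, 34.8% and 47.8% (median −0.24). FN1, fibronectin and the ligand of ITGA5, fell to 3683 ± 284 CPM in depleted cells, against 6636 ± 142 CPM in replete cells (−0.62, edgeR adjusted p = 8.08e-07). NID1, which bridges laminin and collagen IV, rose to 3.35 ± 0.726 CPM in depleted cells, against 0.167 ± 0.0849 CPM in replete cells (4.47, edgeR adjusted p = 1.01e-06), and SPP1, the integrin ligand osteopontin, fell by 2.05.

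Among 17 tested matrix receptors that are not integrins, and integrin partners, 6 rose and 9 fell, 35.3% and 52.9% where 39.1% and 39.4% of all genes did (median −0.83). The heparan sulfate proteoglycans SDC4 and SDC1 went in opposite directions, SDC4 at 222 ± 1.74 CPM in depleted and 24.5 ± 0.671 CPM in replete cells (3.41, edgeR adjusted p = 1.64e-12), and SDC1 at 10.2 ± 1.03 CPM in depleted and 86.7 ± 0.573 CPM in replete cells (−2.87, edgeR adjusted p = 6.99e-11). DAG1, the dystroglycan that binds laminin alpha chains, fell by 2.77. Of 24 tested matrix proteases and inhibitors, 7 rose and 14 fell, 29.2% and 58.3% against the same background (median −0.41). MMP1, the interstitial collagenase, rose to 76.7 ± 7.76 CPM in depleted cells, against 33.6 ± 2.26 CPM in replete cells (1.42, edgeR adjusted p = 4.09e-08), the inhibitor TIMP1 rose by 1.48, and the inhibitor TIMP2 fell by 1.38. Of 5 leukocyte integrin alpha genes outside the symbol rule, ITGAE alone could be tested, at 53.8 ± 3.11 CPM in depleted and 49.6 ± 3.09 CPM in replete cells (0.34, edgeR adjusted p = 0.00414), and it was not called with library totals alone (adjusted p = 0.261).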

How the data were processed

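Gene expression was measured in 6 H460 libraries made by a 3′-end method (Lexogen QuantSeq) from 500 ng of TRIzol-extracted RNA each, per the labels' protocols. Each library has a deposited file of raw counts by gene symbol. Bowtie2, edgeR and hg19 are named without a role in the submitters' processing notes, whereas the counter, strand handling and gene models are not given in the sources used here. Entries of 1 symbol were summed. Genes passing filterByExpr (minimum count 10, minimum total 15) were scaled by trimmed-mean factors and tested in edgeR 4.0.16 (R 4.3.3, robust quasi-likelihood, two-sided, Benjamini-Hochberg over all 12739 genes, threshold 0.05). CPM was computed on library totals. Replicate numbers were not taken as pairs, as same-numbered libraries deviated together with r of 0.119, 0.00611 and 0.0366.

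The members and lists were chosen with earlier results of these data known. Values in each library are given for called members with a mean of at least 10 CPM, for the 3 with the smallest p per family and direction, and for 7 further chains, and other values were added as stated. A few items, among them 1 tested chain left out of the plot of fold changes, are not reported here. GENCODE 29 (GRCh38) served for exon overlaps of 45 of the 46 tested symbols, and RefSeq (GRCh38.p14, 63 of 90 symbols matched) for sequences. Alternatives were DESeq2 size factors, library totals, no filter, a mean CPM of at least 5, DESeq2 1.42.0, limma-voom (3.58.1), a replicate block, the largest entry per symbol and leaving out each library. The test was tested on simulated counts in which few genes changed. In these data 78.6% of genes tested were called, so the simulation does not check the scaling used here.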

Additional observations from a re-analysis of the deposited data

How the results depend on the processing

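Of the 33 called chains, 30 kept direction and call under those of the 14 alternatives that could test them, and the exceptions are COL27A1, ITGA5 and COL4A3. Chains that passed the filter through 1 group alone are among the 30. Such genes tend to differ, so their kept calls are no separate support. With no count filter 11 collagens rose, in place of 7, as did 6 collagen-modifying genes in place of 2 and 2 leukocyte integrin genes in place of 1. A mean CPM of at least 5 tests fewer genes and gave 8 chains higher and 10 lower, with 1 and 1 among integrin alpha chains and 4 and 3 among collagens, 5 matrix glycoproteins and 1 collagen-modifying gene higher, and 9 matrix proteases or inhibitors lower. The number of integrin alpha chains that rose was 1, in place of 2, with library totals alone and with DESeq2, and ran from 1 to 2 when a library was left out. With library totals alone 0 leukocyte integrin genes rose. Reversed signs came from uncalled genes. They were COL4A6 (0.007 with DESeq2 size factors and with DESeq2, and −0.095 to 0.048 when a library was left out), ITGAV (−0.10 with totals), LAMB3 (−0.16 to 0.07), COL1A1 (−0.062 to 2.14) and COL1A2 (−0.67 with limma-voom, and −2.81 to 2.31). For COL1A1 and COL1A2 the sign turned when depleted replicate 3 was left out, and the cause of the other reversals was not tested. A fit with the replicate number as a block gave 4941 genes higher and 4999 lower, against 4987 and 5025, with 13 chains higher and 20 lower in both. ITGB3BP lost its call under the block (adjusted p = 0.0629). By deviation from their group, depleted replicates 1, 2 and 3 matched replete replicates 1, 3 and 3 best. Replete replicates 1, 2 and 3 matched depleted replicates 1, 3 and 2 best. Depth limits the chains with few counts, where only large differences can be seen.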

Other observations

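Across all symbols, 4 had at least 20 counts in depleted replicate 3 and a level, after adding 0.3 CPM, at least 4 times that of every other library: COL1A1, COL1A2, THBS2 and ALB. THBS2, a matrix glycoprotein, had 7, 7 and 163 counts in depleted libraries, against 2, 10 and 20 in replete libraries, and ALB, the serum albumin gene, had 2, 32 and 167 counts in depleted libraries, against 9, 22 and 7 in replete libraries. By the same rule, replete replicate 2 had 2 such symbols, CCL4L2 with 30 counts and CXCR4 with 36, and no other library had any.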
